A study of Homo sapiens with 7 samples.

Results

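The aldo-keto reductases AKR1B1, AKR1B10, AKR1C1, AKR1C2 and AKR1C3 and the carbonyl reductases CBR1 and CBR3 were examined in RNA-seq counts of HCT116 p53-/- cells. HCT116 is an established line from a human colon carcinoma. These 7 genes were taken by symbol from the 19699 genes of the count table. The cells carried introduced p53-R273H, p53-M133T, wild-type p53 or a control. All of them share the p53-/- background, in which the cells' own p53 is not functional. p53 is a transcription factor, and both R273H and M133T substitute a residue of its DNA-binding domain. The control is vector in the series design but vehicle in the treatment protocol and, misspelt, in the sample titles, and it was taken as 1 group, called vector here. The p53-R273H, p53-M133T and vector cells were sequenced with arsenic trioxide (ATO, 1 µg/ml for 24 h) and without it, and wild-type p53 cells without it alone. Each of the 7 groups is 1 library, so no group has a replicate, and the labels do not say whether a line is a clone or a pool of infected cells.

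Aldo-keto reductases and carbonyl reductases use NADPH to reduce aldehydes and ketones to alcohols. The aldo-keto reductases share a barrel fold, whereas CBR1 and CBR3 belong to the short-chain dehydrogenases. AKR1B1, aldose reductase, turns glucose into sorbitol in the polyol pathway, and AKR1B10 reduces retinal and lipid-derived aldehydes. AKR1B10 is abundant in normal intestinal epithelium and often low in colorectal tumours. AKR1C1 inactivates progesterone, AKR1C2 inactivates dihydrotestosterone, and AKR1C3 forms testosterone and F-type prostaglandins. CBR1 reduces prostaglandins, quinones and anthracycline drugs, and CBR3 is its close relative with fewer known substrates. In human cells, AKR1B10, the AKR1C genes and CBR3 are known targets of NRF2, the transcription factor of the antioxidant response.

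The genes lie in 3 clusters of the hg38 build, with positions here from GENCODE release 29. AKR1B1 lies at chr7:134442350-134459284 on the minus strand and AKR1B10 at chr7:134527592-134541408 on the plus strand. AKR1C1 lies at chr10:4963253-4983283 on the plus strand, AKR1C2 at chr10:4987400-5018031 on the minus strand and AKR1C3 at chr10:5035354-5107686 on the plus strand. CBR1 at chr21:36069941-36073166 and CBR3 at chr21:36134912-36146566 both lie on the plus strand.

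The AKR1C coding sequences are near-copies, which sets how far their counts can be told apart. Over 969 aligned coding bases, AKR1C1 and AKR1C2 were 98.04% identical, AKR1C1 and AKR1C3 91.43%, and AKR1C2 and AKR1C3 91.02%. The first 150 coding bases, the length of 1 read, are shown for the 3 genes. Capitals mark the 8 bases that differ between AKR1C1 and AKR1C2, and in AKR1C3 the 19 bases that differ from AKR1C1.
AKR1C1: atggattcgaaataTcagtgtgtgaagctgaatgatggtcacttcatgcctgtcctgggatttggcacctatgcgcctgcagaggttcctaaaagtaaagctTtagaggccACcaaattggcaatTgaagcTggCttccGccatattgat
AKR1C2: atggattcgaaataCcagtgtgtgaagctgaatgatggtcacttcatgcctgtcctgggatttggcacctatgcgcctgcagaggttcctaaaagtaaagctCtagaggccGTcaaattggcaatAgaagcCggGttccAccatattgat
AKR1C3: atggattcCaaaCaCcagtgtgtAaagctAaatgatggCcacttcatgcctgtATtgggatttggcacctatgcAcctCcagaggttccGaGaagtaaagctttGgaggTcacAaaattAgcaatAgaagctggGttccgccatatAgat

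Of all stretches of 150 bases in the coding transcripts, 10.61% of AKR1C1 (shared with AKR1C2), 17.55% of AKR1C2 (shared with AKR1C1 and AKR1C3) and 1.02% of AKR1C3 (shared with AKR1C2) also occurred in another gene. The stretches, 7006, 4358 and 2156 in these genes, are pooled over all their coding transcripts, untranslated parts included. Reads also came in pairs, so these percentages are not shares of ambiguous reads. AKR1B1 and AKR1B10 had no such shared stretch, and their coding sequences were 76.16% identical. CBR1 shared 12.15% of its stretches with AP000688.1 and CBR3 shared 19.51% with CBR3-AS1, both annotated on the opposite strand, over 18.94% of the exon bases of CBR1 and 42.17% of those of CBR3. The sources used here do not give the strand setting or the rule for reads with several matches, so the counts of the AKR1C genes, CBR1 and CBR3 are uncertain in a way that those of AKR1B1 and AKR1B10 are not.

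Promoter windows from RefSeq (GRCh38.p14, 250 bases before to 50 after an annotated start) matched 5 of the 7 genes, with 7 windows. The windows of the highest member and of the closest AKR1C pair are shown in the direction of transcription, with the CCAAT box (CCAAT, or ATTGG on the other strand) in capitals. They are AKR1B1 at chr7:134459051-134459350 (minus strand), AKR1C1 at chr10:4963165-4963464 (plus strand) and AKR1C2 at chr10:5003808-5004107 (minus strand).
AKR1B1: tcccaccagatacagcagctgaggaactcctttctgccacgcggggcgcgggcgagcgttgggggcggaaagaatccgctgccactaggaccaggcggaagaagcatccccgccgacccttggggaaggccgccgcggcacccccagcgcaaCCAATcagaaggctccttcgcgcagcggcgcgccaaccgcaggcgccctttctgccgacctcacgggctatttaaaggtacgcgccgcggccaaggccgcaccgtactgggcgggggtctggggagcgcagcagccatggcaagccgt
AKR1C1: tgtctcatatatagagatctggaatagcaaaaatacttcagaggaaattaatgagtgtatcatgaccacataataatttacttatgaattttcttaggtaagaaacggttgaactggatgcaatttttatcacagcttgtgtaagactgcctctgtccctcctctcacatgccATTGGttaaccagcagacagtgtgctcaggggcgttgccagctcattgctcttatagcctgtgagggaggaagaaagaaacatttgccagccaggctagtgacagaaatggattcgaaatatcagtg
AKR1C2: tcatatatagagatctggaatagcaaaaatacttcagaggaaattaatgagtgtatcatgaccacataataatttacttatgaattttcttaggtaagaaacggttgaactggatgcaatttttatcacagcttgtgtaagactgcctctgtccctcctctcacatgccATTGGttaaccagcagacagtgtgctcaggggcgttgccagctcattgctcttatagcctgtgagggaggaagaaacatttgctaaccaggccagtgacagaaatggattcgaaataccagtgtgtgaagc

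The AKR1C1 and AKR1C2 windows were identical at 288 of 308 aligned positions (93.51%). The CCAAT box, searched on both strands, was present in 6 of the 7 windows, all 6 of them in aldo-keto reductase genes, and in 34.6% of all 35116 RefSeq windows. The core of the antioxidant response element bound by NRF2 (TGACNNNGC, or GCNNNGTCA on the other strand) was present in 1 of the 7 windows, that of CBR1, and in 13.3% of all windows. The AP-1 site (TGANTCA) was in 0 of the 7 windows and in 7.71% of all windows. The antioxidant response core and the AP-1 site can overlap, since the NNN of TGACNNNGC may spell the end of TGANTCA. The CCAAT matches are not 6 separate occurrences: both AKR1B1 windows overlap and hold the same box, and the AKR1C windows belong to near-copies. A match or its lack describes the letters of these windows and nothing further.

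Libraries held 25062996 to 39297534 counts, and 0 counts allow up to 3, which is 0.0761 to 0.116 CPM, the counts scaled to library size by the trimmed mean of M-values. Of 10 intestinal epithelial markers, 8 to 10 had counts in each library, although CDX1 was at 0 in 5 libraries. The wild-type library carries another numeric prefix in its name than the other 6, and its genotype and a batch therefore cannot be told apart.

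AKR1B1 was by far the most abundant of the 7 transcripts, with 94.2% to 96.9% of their summed counts in each library. Per kilobase of exon, AKR1B1 stood at 11.4 to 22.6 CPM per kb, followed in every library by CBR3 at 0.852 to 1.73 CPM per kb. The other 5 genes lay below CBR3, with AKR1B10 at 0.0487 to 0.727 CPM per kb, AKR1C1 at 0.0265 to 0.0989, AKR1C2 at 0.035 to 0.102, AKR1C3 at 0.0056 to 0.0583 and CBR1 at 0 to 0.0693 CPM per kb. AKR1B10 took the third place in all 3 ATO libraries, above the AKR1C genes and CBR1. Without ATO, AKR1B10, AKR1C1, AKR1C2 and CBR1 changed places between libraries at counts of 0 to 24, and differences between them were not tested. Exon length is the union of all annotated exons of a gene, 8765 bases for AKR1C1 and 6461 for AKR1C2, against 1744 for AKR1B10. The order per kilobase depends on that length. By counts, AKR1C1 lay above AKR1B10 in untreated p53-R273H, p53-M133T and vector cells, with 13, 24 and 18 against 4, 4 and 3. The close relatives AKR1B15 and AKR1C4 never exceeded 1 count.

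**Figure D1:**
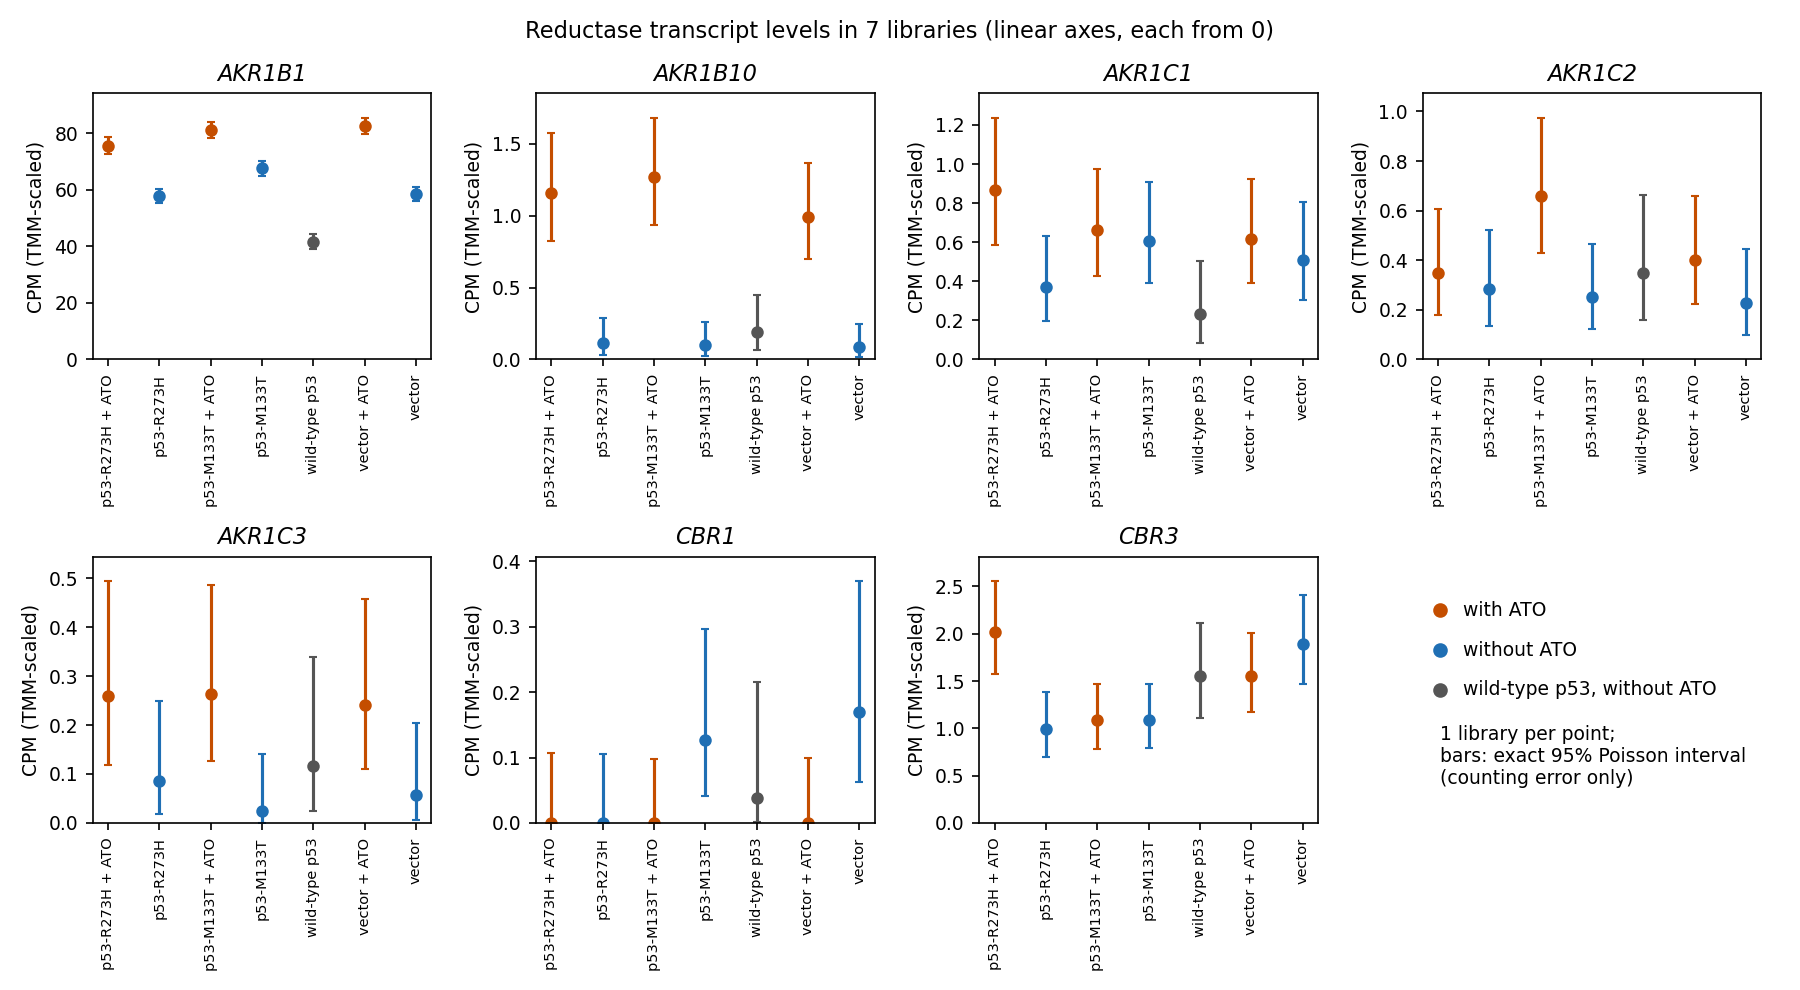
Each panel plots 1 reductase transcript in the 7 libraries as CPM scaled by the trimmed mean of M-values, on a linear axis from 0, with orange for ATO, blue for no ATO and grey for wild-type p53. Points are single libraries and bars are exact 95% Poisson intervals of the count. The AKR1B10 panel shows 0.989 to 1.27 CPM in the 3 ATO libraries and 0.0849 to 0.114 CPM in their untreated counterparts, with bars that do not meet.

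With ATO, AKR1B10 and AKR1B1 rose across the 3 lines, AKR1B10 by 11.0-fold from a level near the detection limit and AKR1B1 by 1.3-fold from a far higher level. The AKR1C transcripts were higher with ATO in every line but passed the test only when their counts were summed, at 1.78-fold, a call that 3 of 7 alternative settings lost. CBR3 did not pass. AKR1C3 and CBR1 had too few counts to enter the test. The comparison asks what ATO did in the same direction in p53-R273H, p53-M133T and vector cells, so the lines stand in for replicates and the cell line is a block in the model. Of the 5 members tested, 2 rose and 0 fell (edgeR's quasi-likelihood test, Benjamini-Hochberg adjusted p below 0.05), on a background of 22.3% of 13572 genes that rose and 20.9% that fell. The same 2 members had an unadjusted p below 0.05, and DESeq2 also called 2 that rose and 0 that fell. Scaling by library totals alone, which gives 2234 genes that rose and 3512 that fell in place of 3021 and 2838, left the members' calls at 2 and 0.

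By levels alone, 5 of the 7 members (AKR1B1, AKR1B10, AKR1C1, AKR1C2 and AKR1C3) had all 3 ATO libraries above all 3 libraries without ATO, and 0 had all below. Over the 18960 genes with a count in those 6 libraries, 19.3% were separated upward and 20.3% downward. For AKR1C1 the margin was slight, with 0.6145 CPM (23 counts) in treated vector cells against 0.6086 CPM (24 counts) in untreated p53-M133T cells. Scaling by library totals alone reverses that order, so the separation of AKR1C1 depends on the scaling. In a bulk sample, fewer cells with a transcript and less of it per cell cannot be told apart. The mitochondrial share of counts also moved with ATO, at 3.64%, 2.35% and 2.30% in p53-R273H, p53-M133T and vector cells with ATO, against 3.77%, 4.59% and 3.69% without. The 10 leukocyte markers summed to 8.02 to 9.06 CPM with ATO, with 2 to 4 of them above 3 counts, against 4.77 to 5.89 CPM without ATO, with 5 of them above 3 counts. TYROBP was at 0 in all 6 of these libraries, PTPRC at 0 in p53-R273H cells with ATO and p53-M133T cells without, and FCGR3A at 0 in both vector libraries and in p53-M133T cells with ATO. The 6 erythroid markers summed to 0.953 to 2.03 CPM with ATO and 1.08 to 13.8 CPM without, and HBD was at 0 in the p53-R273H and p53-M133T libraries. The 10 intestinal epithelial markers summed to 3970 to 4950 CPM with ATO and 3300 to 3880 CPM without, with VIL1 at 0 in 2 ATO libraries. The part of these shifts in the reductase values was not tested.

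AKR1B10 had 40, 48 and 37 counts in p53-R273H, p53-M133T and vector cells with ATO, against 4, 4 and 3 counts without ATO. On the CPM scale this was 1.14 ± 0.141 with ATO and 0.100 ± 0.0145 without (SD, n = 3 lines each). Every treated library lay far above every untreated one, and the 3 treated libraries differed little among themselves. The ratio of ATO to no ATO was 10.2 in p53-R273H cells (95% counting interval 3.67 to 39.1), 12.5 in p53-M133T cells (4.58 to 47.7) and 11.6 in vector cells (3.69 to 59.0). These ratios rest on 3 or 4 untreated counts, which is why the intervals are wide, and they cover counting error only. Across the lines the log2 fold change was 3.46 with an SE of 0.41 (edgeR's quasi-likelihood test, adjusted p = 0.000563), higher in 3 of 3 lines. By that fold change AKR1B10 ranked as number 3 of the 13572 genes tested. It passed the filter on low counts through the treated libraries, as its untreated 3 or 4 counts lie below the filter's minimum of 10 counts. Its own level with ATO remained modest, since AKR1B1 in the same libraries was at 75.6 to 82.5 CPM.

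No dependence of the AKR1B10 gain on the p53 form was detectable at these counts. The difference of its log2 fold change from the mean of the other lines was -0.24 (SE 1.2) in p53-R273H cells, 0.21 (SE 1.23) in p53-M133T cells and 0.02 (SE 0.75) in vector cells, each with an adjusted p of 0.956 or more by edgeR's quasi-likelihood test. With such errors a difference of several-fold between lines would have gone unseen. Wild-type p53 cells without ATO had 5 AKR1B10 counts and vector cells had 3, a ratio of 2.28 (0.444 to 14.7) that does not differ from 1 beyond counting error.

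AKR1B1 had 2618, 3074 and 3089 counts in p53-R273H, p53-M133T and vector cells with ATO, against 2033, 2665 and 2069 counts without ATO. As CPM, these were 75.6, 81.2 and 82.5 with ATO and 57.8, 67.6 and 58.6 without. The treated libraries lay above all the untreated ones, and the untreated p53-M133T library came closest to them. The ratio was 1.31 in p53-R273H cells (1.23 to 1.39), 1.2 in p53-M133T cells (1.14 to 1.27) and 1.41 in vector cells (1.33 to 1.49). Across the lines the log2 fold change was 0.38 with an SE of 0.06 (edgeR's quasi-likelihood test, adjusted p = 0.00248), higher in 3 of 3 lines. AKR1B1 ranked as number 1661 by log2 fold change among all 13572 genes, so many genes moved more. The ATO change in p53-M133T cells differed from that of the other lines by -0.17 on the log2 scale (SE 0.10), which did not pass (edgeR's quasi-likelihood test, adjusted p = 0.322).

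The genes around AKR1B1 and AKR1B10 did not pass the test. BPGM, which makes bisphosphoglycerate and lies 105400 bases from AKR1B10, had a log2 fold change of 0.13 (adjusted p = 0.307), and SLC35B4, a nucleotide sugar transporter gene on the other side of AKR1B1, had -0.09 (adjusted p = 0.4), both by edgeR's quasi-likelihood test. LRGUK had 10 to 24 counts and a log2 fold change of -0.34 (adjusted p = 0.579 in the same edgeR test). AKR1B15, the nearest gene to AKR1B10 at 7728 bases, had at most 1 count. A test of AKR1B1 or AKR1B10 against these neighbours was not run.

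AKR1C1 had 30, 25 and 23 counts in p53-R273H, p53-M133T and vector cells with ATO, against 13, 24 and 18 counts without ATO. Its log2 fold change across the lines was 0.51 (SE 0.37), which did not pass edgeR's quasi-likelihood test (adjusted p = 0.303). Each treated count exceeded the untreated count of its own line, but in p53-M133T cells by only 1 count. Between lines the counts overlapped, with 23 in treated vector cells and 24 in untreated p53-M133T cells. The ratio was 2.34 in p53-R273H cells (1.19 to 4.9), while those of 1.08 in p53-M133T cells (0.594 to 1.98) and 1.21 in vector cells (0.623 to 2.37) have intervals that include 1.

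AKR1C2 had 12, 25 and 15 counts with ATO in p53-R273H, p53-M133T and vector cells, against 10, 10 and 8 counts without. Its log2 fold change was 0.85 (SE 0.44), which also did not pass (edgeR's quasi-likelihood test, adjusted p = 0.151). Here the p53-M133T pair stood out, with a ratio of 2.6 (1.21 to 6.07), beside 1.22 (0.483 to 3.15) in p53-R273H cells and 1.77 (0.705 to 4.82) in vector cells. AKR1C1 and AKR1C2 thus had their largest ratio in different lines. Neither gene's ATO change in a single line differed from the other lines by edgeR's quasi-likelihood test, with adjusted p from 0.747 to 1.

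AKR1C3 had 9, 10 and 9 counts with ATO in p53-R273H, p53-M133T and vector cells, against 3, 1 and 2 counts without. Its ratios were 3.05 (0.76 to 17.5) in p53-R273H cells, 10.4 (1.48 to 452) in p53-M133T cells and 4.25 (0.879 to 40.4) in vector cells. The treated counts were 3 or more times the untreated ones in each line, at a level near the limit of detection. The gene was left out of the test by the filter on low counts. Without that filter its log2 fold change was 2.17 and did not pass (edgeR's quasi-likelihood test, adjusted p = 0.0673).

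Reads of these near-copies can be exchanged among them, so the counts of AKR1C1, AKR1C2, AKR1C3 and AKR1C4 were also summed. The sum was 51, 60 and 48 counts in p53-R273H, p53-M133T and vector cells with ATO, against 26, 35 and 28 counts without ATO. In CPM it was 1.45 ± 0.153 with ATO and 0.806 ± 0.075 without (SD, n = 3 lines each), and the groups did not overlap. The ratio was 1.99 (1.22 to 3.33) in p53-R273H cells, 1.79 (1.16 to 2.79) in p53-M133T cells and 1.62 (0.995 to 2.68) in vector cells, closer together than those of the single genes. The counting intervals of the 3 lines overlap for the sum and for each single gene, and the difference in spread was not tested. The summed copies rose with a log2 fold change of 0.83 and an SE of 0.26 (edgeR's quasi-likelihood test, adjusted p = 0.0318), higher in 3 of 3 lines. That call was lost with DESeq2 (log2 0.84, adjusted p = 0.134), without the vector pair (0.91, edgeR adjusted p = 0.0765) and without the p53-R273H pair (0.76, edgeR adjusted p = 0.119), settings chosen after the data were seen. The upstream neighbour AKR1E2, another aldo-keto reductase gene 115191 bases from AKR1C1, had 35 to 79 counts and a log2 fold change of 0.17 (edgeR's quasi-likelihood test, adjusted p = 0.568).

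**Figure D2:**
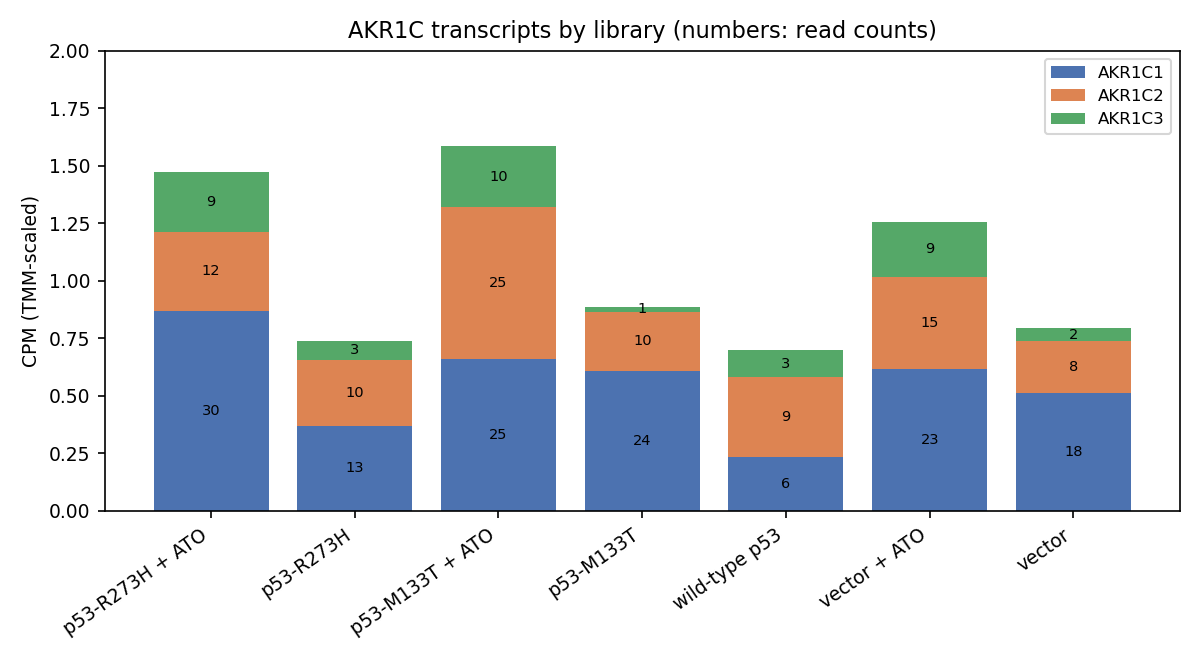
Stacked bars give the CPM of AKR1C1, AKR1C2 and AKR1C3 in each of the 7 libraries on a linear axis from 0, with the read counts written in the bars. The stacks of the 3 ATO libraries, with 47 to 60 counts, stand above those of all 4 libraries without ATO, with 18 to 35 counts, and the AKR1C3 segment holds 9 or 10 counts with ATO and 1 to 3 without.

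The split of AKR1C reads among the copies varied between libraries. AKR1C1 took 58.8%, 41.7% and 48.9% of the AKR1C1, AKR1C2 and AKR1C3 counts in p53-R273H, p53-M133T and vector cells with ATO, against 13 of 26 counts, 68.6% and 64.3% without. AKR1C3 took 17.6% (exact Clopper-Pearson 95% interval 8.4% to 30.9%), 16.7% (8.29% to 28.5%) and 19.1% (9.15% to 33.3%) with ATO, against 11.5% (2.45% to 30.2%), 2.86% (0.0723% to 14.9%) and 7.14% (0.877% to 23.5%) without. The AKR1C3 share was higher with ATO in all 3 lines, and the intervals of each pair overlap. The difference between these shares was not tested. In wild-type p53 cells AKR1C2 held 9 of 18 counts and AKR1C1 held 6, whereas AKR1C1 held 18 of 28 in vector cells.

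CBR3 had 70, 41 and 58 counts in p53-R273H, p53-M133T and vector cells with ATO, against 35, 43 and 67 counts without ATO. In CPM it averaged 1.55 ± 0.47 with ATO and 1.33 ± 0.495 without (SD, n = 3 lines each), and the groups overlapped. Its ratio was 2.03 (1.34 to 3.14) in p53-R273H cells, 0.993 (0.631 to 1.56) in p53-M133T cells and 0.817 (0.565 to 1.18) in vector cells. Across the lines CBR3 did not pass (log2 fold change 0.22, SE 0.30, edgeR's quasi-likelihood test, adjusted p = 0.588), and without the p53-R273H pair the value was -0.17 (edgeR adjusted p = 0.748). The log2 fold change in p53-R273H cells exceeded the mean of the other lines by 1.19 (SE 0.61), which did not pass either (edgeR's quasi-likelihood test, adjusted p = 0.95). If strand was not used in counting, which the sources used here do not say, CBR3 and CBR3-AS1 reads cannot be told apart over the exon bases they share.

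CBR1 had 0 counts in the 3 ATO libraries, against 0, 5 and 6 counts in p53-R273H, p53-M133T and vector cells without ATO, and 1 count in wild-type p53 cells. Set against 3 counts in the library at 0, and with the untreated count taken as exact, the ATO level was at least 1.6-fold lower in p53-M133T cells and at least 2.12-fold lower in vector cells. The counting error of the untreated 5 and 6 counts allows smaller ratios, and the exact Poisson intervals of each pair overlap. No ratio can be given for p53-R273H cells, which had 0 counts in both libraries. CBR1 was left out of the test by the filter on low counts, and without that filter it did not pass (edgeR's quasi-likelihood test, adjusted p = 0.087). SETD4, whose locus overlaps that of CBR1, had 323 to 663 counts and a log2 fold change of -0.09 (edgeR's quasi-likelihood test, adjusted p = 0.55). The part of the counting rule in these low CBR1 counts was not tested.

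Downstream of CBR3, DOP1B rose with a log2 fold change of 0.32 (adjusted p = 0.0141) and MORC3, a chromatin-associated ATPase, rose with 0.43 (adjusted p = 0.00147), while RUNX1, a haematopoietic transcription factor gene upstream of CBR1, had -0.08 (adjusted p = 0.469), all by edgeR's quasi-likelihood test. CBR1 and CBR3, which lie between RUNX1 and MORC3, did not pass or were not tested. Difference tests between these genes were not run.

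**Figure D3:**
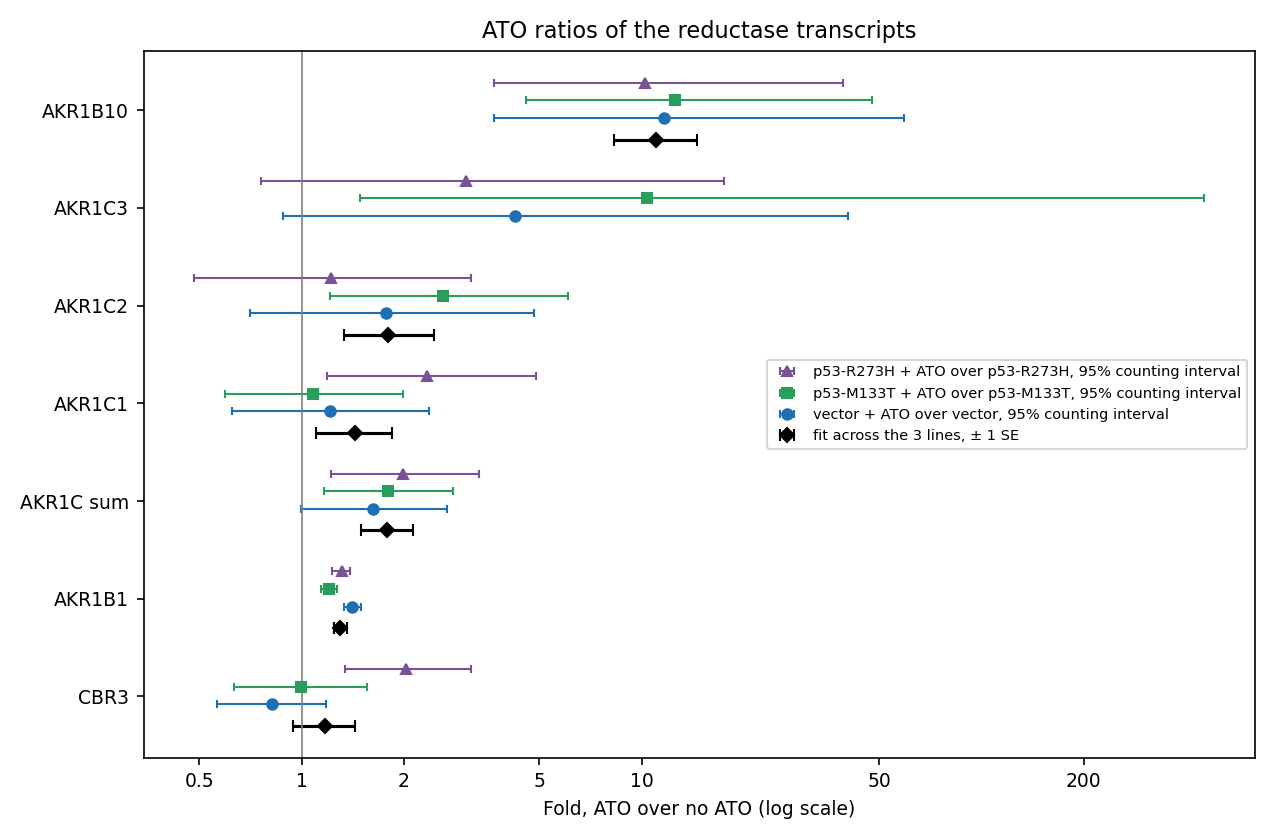
Ratios of ATO to no ATO are drawn on a log axis for 6 of the 7 reductases and the AKR1C sum, with coloured points for the 3 lines (bars are 95% counting intervals) and black diamonds for the fit across lines (bars are 1 SE); AKR1C3 had too few counts for the fit, and CBR1 is not drawn. The AKR1B10 points lie between 10.2 and 12.5, those of AKR1B1 between 1.2 and 1.41, and those of CBR3 fall on both sides of 1.

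Whether the ATO effect differed in 1 line was tested for each line against the mean of the other lines. In p53-R273H cells, 0 of 5 members differed, on a background of 0.15% of 13974 genes with a higher and 0.0716% with a lower log2 fold change. In p53-M133T cells, 0 of 5 members differed, on a background of 5.84% higher and 2.43% lower, and in vector cells 0 of 5 on a background of 0.0% in both directions. By edgeR's quasi-likelihood test, 0 members had an unadjusted p below 0.05 in any of the 3 tests. DESeq2 called 0 members as well, with no adjusted p for 4 of the 5 in the p53-M133T test. With 1 residual degree of freedom, these tests carry little weight for transcripts with so few counts.

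Single pairs of libraries were described by a size rule of 2-fold on log2(CPM + 1), a scale that understates the change of low genes. AKR1B1, AKR1B10 and CBR3 reached 1 CPM in a library and could be counted. AKR1B10 did so only with ATO, in p53-R273H and p53-M133T cells, so it entered the count through treated libraries. In p53-M133T cells, AKR1B10 alone was past the rule with ATO (log2 1.04), on a background of 1.35% of 12661 genes at least 2-fold higher and 0.971% lower. In p53-R273H cells 0 members passed the rule (background 0.592% higher and 0.782% lower), and in vector cells 0 passed it (0.671% higher and 0.987% lower), where AKR1B10 fell short at log2 0.95 and 0.87.

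Without ATO, the p53 forms were compared with vector to ask what they did on their own, and these 3 comparisons share the vector library with each other and with the ATO pair of vector cells. Of the 3 members that could be counted, AKR1B1, AKR1B10 and CBR3, none passed the 2-fold rule in p53-R273H cells (background 0.0711% higher and 0.103% lower), p53-M133T cells (0.0948% higher and 0.111% lower) or wild-type p53 cells (2.87% higher and 1.96% lower). AKR1B10, with 3 to 5 counts in these untreated libraries, could not have passed it downward on this scale. The AKR1C genes and CBR1 were not counted, so the rule says nothing of them. AKR1B1 had a ratio to vector of 0.988 (0.929 to 1.05) in p53-R273H cells, 1.15 (1.09 to 1.22) in p53-M133T cells and 0.711 (0.66 to 0.766) in wild-type p53 cells, where its 1076 counts gave 41.6 CPM, the lowest of the 7 libraries. The wild-type library also differed from vector in its mitochondrial share, at 1.41% against 3.69%. Its 10 leukocyte markers summed to 68.0 CPM with 6 above 3 counts and CD3E and FCGR3A at 0, against 5.89 CPM with 5 above 3 counts and FCGR3A and TYROBP at 0 in vector cells. The part of these differences in the AKR1B1 value was not tested.

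CBR3 had 35, 43 and 40 counts in p53-R273H, p53-M133T and wild-type p53 cells without ATO, against 67 counts in vector cells. Its ratio to vector was 0.525 (0.339 to 0.802) in p53-R273H cells, 0.575 (0.383 to 0.856) in p53-M133T cells and 0.817 (0.538 to 1.23) in wild-type p53 cells. The intervals of both variant forms lie below 1 for counting error, and with 1 library each there is no replicate check. The AKR1C sum was 0.933 (0.526 to 1.65), 1.12 (0.662 to 1.91) and 0.879 (0.458 to 1.65) of vector in p53-R273H, p53-M133T and wild-type p53 cells, so no difference was detectable at this depth. AKR1C1 alone had 13, 24 and 6 counts in these cells, against 18 counts in vector cells, and its ratio in wild-type p53 cells was 0.456 (0.148 to 1.2). AKR1C2 had 10, 10 and 9 counts, against 8 counts in vector cells. The ratio intervals of both genes include 1 for each p53 form.

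The reductases were set beside lists of related enzymes, counted in the same ATO test across the lines, in which the median log2 fold change over all genes was 0.00186. Of all 13572 genes tested there, 22.3% rose and 20.9% fell, which is the background for each list below. The lists were chosen with earlier results of these data known. Of the other aldo-keto reductases, 7 of 10 were tested, with 0 that rose, 2 that fell and a median of -0.03. AKR7A2, an aflatoxin aldehyde reductase, fell (log2 -0.39, adjusted p = 0.00142), as did KCNAB2, a potassium channel beta subunit with the aldo-keto fold (-0.29, adjusted p = 0.0269), both by edgeR's quasi-likelihood test. AKR1A1, aldehyde reductase, had 78.3, 87.7 and 79.3 CPM in p53-R273H, p53-M133T and vector cells with ATO, against 73.9, 87.9 and 77.9 CPM without, a log2 fold change of 0.03 (edgeR adjusted p = 0.699). Its level resembled that of AKR1B1, and its 2 groups overlapped.

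Of the other carbonyl-reducing short-chain dehydrogenases, 18 of 20 were tested, with 3 that rose, 6 that fell and a median of -0.17. DHRS2, a dicarbonyl reductase, rose (log2 1.61, adjusted p = 2.59e-05 by edgeR's quasi-likelihood test), with 17.7, 18.5 and 17.7 CPM in p53-R273H, p53-M133T and vector cells with ATO, against 5.77, 5.65 and 6.17 CPM without. HSD17B8 (log2 -1.16, adjusted p = 0.000323) and CBR4 (-0.62, adjusted p = 0.000515), which together form the ketoacyl reductase of mitochondrial fatty acid synthesis, both fell in edgeR's quasi-likelihood test. Of the aldehyde dehydrogenases, which oxidise aldehydes where the reductases reduce them, 16 of 19 were tested, with 2 that rose, 4 that fell and a median of -0.19. ALDH2, the mitochondrial acetaldehyde dehydrogenase, rose by 1.91-fold (adjusted p = 4.29e-05) and ALDH3A2, a fatty aldehyde dehydrogenase, by 1.48-fold (adjusted p = 0.00024) in edgeR's quasi-likelihood test.

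Of 32 genes listed for the NRF2 antioxidant response, 31 were tested, with 28 that rose, 1 that fell and a median log2 fold change of 1.01. HMOX1, heme oxygenase, rose by 75.9-fold (adjusted p = 1.92e-09) and GCLM, the modifier subunit of glutathione synthesis, by 5.54-fold (adjusted p = 2.84e-07) in edgeR's quasi-likelihood test. AKR1B10, at 11.0-fold, lay between these genes, and AKR1B1 at 1.3-fold lay below the list's median. Of 8 NRF2 regulators, 4 rose and 0 fell. They included MAFF, a small MAF partner (log2 0.81, adjusted p = 0.000112), and BACH1, a repressor of the same sites (0.54, adjusted p = 0.0012), by edgeR's quasi-likelihood test. The transcript of NFE2L2, which encodes NRF2, had a log2 fold change of 0.13 (adjusted p = 0.0708), and that of KEAP1, its inhibitor, 0.06 (adjusted p = 0.425), in the same edgeR test.

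Of the genes of osmotic stress and of the polyol pathway, which AKR1B1 opens, 7 of 8 were tested, with 0 that rose, 1 that fell and a median of -0.03. KHK, which phosphorylates fructose, fell (log2 -0.51, edgeR's quasi-likelihood test, adjusted p = 0.0285). Of the other steroid and prostaglandin enzymes, 18 of 24 were tested, with 2 that rose, 3 that fell and a median of -0.15. PTGS1, a cyclooxygenase (log2 -1.21, adjusted p = 0.00224), and PTGES, a prostaglandin E synthase (-0.72, adjusted p = 0.00168), fell in edgeR's quasi-likelihood test. Of 6 p53 targets read as a check of the labels, 4 rose and 0 fell, with a median of 0.83. FAS, a death receptor (log2 1.11, adjusted p = 0.00254), and MDM2, the ligase that degrades p53 (0.96, adjusted p = 0.0299), were among those that rose in edgeR's quasi-likelihood test. Their rise was uneven, largest in p53-M133T cells and present in vector cells too. FAS had 7.97, 21.9 and 12.8 CPM in p53-R273H, p53-M133T and vector cells with ATO, against 5.09, 6.77 and 6.88 without. MDM2 had 184, 550 and 222 CPM with ATO in the same order, against 150, 131 and 150 without. CDKN1A, a cyclin-dependent kinase inhibitor, stood at 74.6, 357 and 83.9 CPM in p53-R273H, p53-M133T and vector cells with ATO, against 61.5, 85.0 and 60.9 CPM without. Of these, p53-M133T cells under ATO stood far above the rest. Wild-type p53 cells, sequenced without ATO alone, had 196 CPM of CDKN1A, 243 of MDM2 and 10.8 of FAS, each above untreated vector cells.

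**Figure D4:**
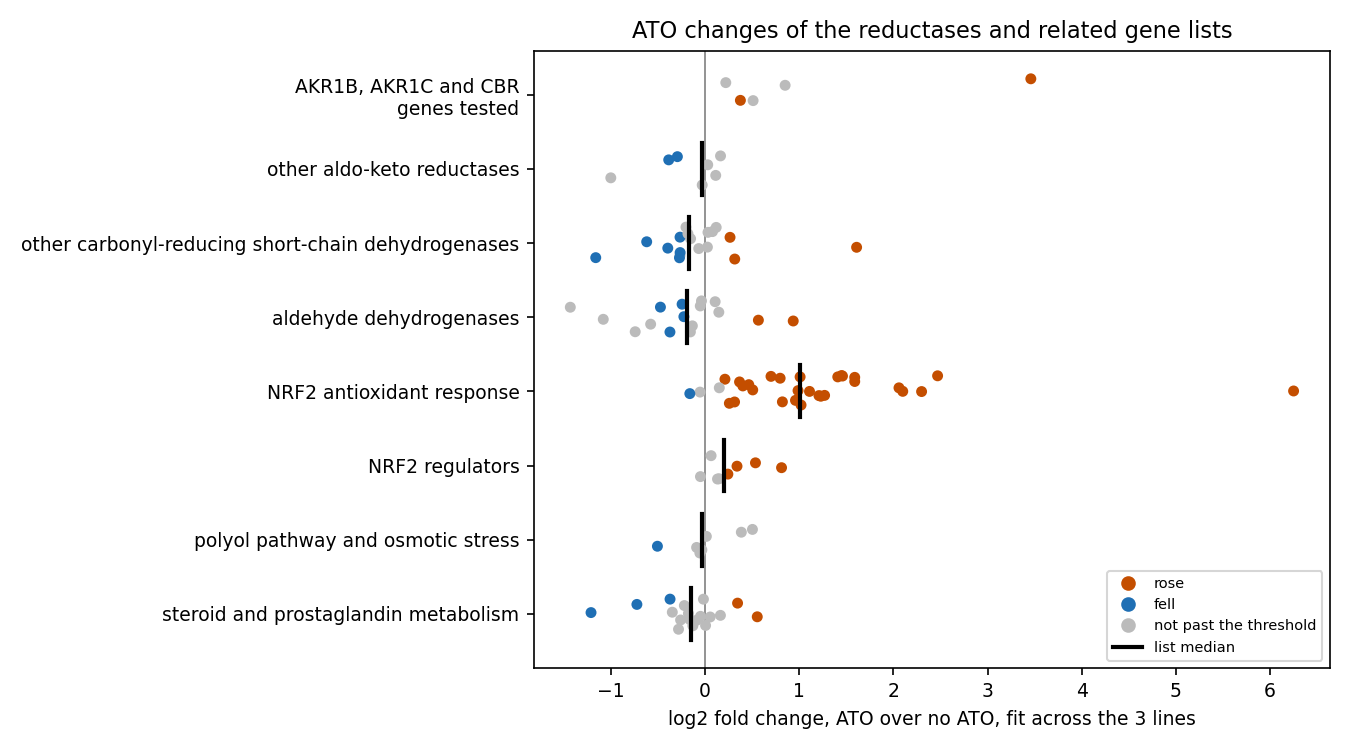
Each point is the log2 fold change of ATO over no ATO for 1 gene in the fit across the 3 lines, by gene list, in orange where it rose, blue where it fell and grey where it did not pass; black bars are list medians. The NRF2 antioxidant list has its median at 1.01, with HMOX1 at 6.25, and AKR1B10 at 3.46 stands apart from the other 4 reductases tested, which lie between 0.22 and 0.85.

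AKR1B10 was the only member whose log2(CPM + 1) range over the 7 libraries reached 1, at 1.06. The genes with the profile closest to it were WDR45 (root mean square distance 0.0954, Pearson r 0.981), GCLC (0.097, r 0.98) and PRKAB2 (0.0987, r 0.991), over 7 libraries that fall into treated and untreated ones. GCLC, the catalytic subunit of glutathione synthesis, had 173, 168 and 182 CPM in p53-R273H, p53-M133T and vector cells with ATO, against 89.5, 80.8 and 86.8 CPM without. The likeness is one of differences on the log2(CPM + 1) scale, on which a gene near 1 CPM moves less than its fold.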

How the data were processed

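The authors deposited 1 table of whole-number read counts per gene, not normalized, for 7 libraries. Per the labels' protocols, libraries came from a TruSeq kit and were read in pairs of 150 bases on a HiSeq Xten. The hg38 build and the tools STAR, cutadapt and FastQC, without versions, are per the submitters' processing notes. The sources used here do not give the counter, annotation or strand setting. The members and gene lists were chosen with earlier results of these data known. All 7 members were named, with the 3 genes of most similar profile to a member whose log2(CPM + 1) range reached 1, protein-coding neighbours within 200 kb, and from each list the 2 genes that passed with the largest log2 fold changes plus AKR1C4, AKR1B15, AKR1A1, CBR4, NFE2L2 and KEAP1. CDKN1A and GCLC values were added after they were seen.

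CPM were scaled by the trimmed mean of M-values (edgeR 4.0.16, R 4.3.3; factors 0.967 to 1.03). ATO across lines was tested with edgeR's quasi-likelihood test on 6 libraries, the cell line as block, after edgeR's filter on low counts, over 13572 genes with 2 residual degrees of freedom and Benjamini-Hochberg adjustment over all of them, at 0.05. The 3 tests of single lines covered 13974 genes with 1 residual degree of freedom and share the same libraries. P-values rest on how the ATO effect differed between lines, which holds differences between cultures and libraries that were not measured apart. edgeR also draws the spread of each gene toward a trend over all genes. The weight of that trend was 5.95 prior degrees of freedom in the test across lines. For single lines it was 32.24 in p53-R273H, 157.6 in p53-M133T and 6.96 in vector cells. Each exceeds the residual degrees of freedom, so the p-values rest more on the trend than on the gene itself. Libraries of 1 line form the pairs by design, and the correlations of their deviations were 0.11 for p53-R273H, 0.0676 for p53-M133T and -0.00917 for vector. Ratios of 2 libraries carry 95% Clopper-Pearson counting intervals, which cover counting error alone, as no molecular identifiers mark independent molecules. The level of the introduced gene is not reported here. Alternatives were other scalings, filters, pseudocounts, DESeq2 1.42.0, no block, each pair left out, summed AKR1C copies, and a length and GC correction.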

Additional observations from a re-analysis of the deposited data

How the results depend on the processing

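Without each pair of libraries in turn, between 2 and 2 reductases rose and between 0 and 0 fell with ATO across the lines. No replicate block also gave 2 and 0, so the block changed no call of a reductase tested singly. Over all genes the counts differed, with 2620 that rose and 2656 that fell of 13343 without the block. With the block they were 3021 and 2838 of 13572. With a mean of at least 10 CPM required, 1 rose, since AKR1B1 alone passed that filter, and with the AKR1C copies summed 3 did. Over all alternatives the log2 fold change of AKR1B10 was 3.38 to 3.55 (adjusted p from 6.16e-08 to 0.0044) and that of AKR1B1 0.32 to 0.44 (adjusted p from 6.31e-13 to 0.0457), by edgeR's quasi-likelihood test or DESeq2. Both lowest adjusted p came from the edgeR fit without the p53-M133T pair, with 1 residual degree of freedom. Its prior degrees of freedom were infinite, so the spread of the gene itself did not enter. CBR3 ran from -0.17 to 0.52 with a pair left out, below 0 without the p53-R273H pair, and the AKR1B1 difference in p53-R273H cells turned to -0.00265 with length and GC correction. Neither had passed, and the cause was not tested. By the 2-fold rule, a pseudocount of 0.5 put 1 member higher with ATO in p53-R273H cells, and likewise 1 in vector cells, against 0 with 1, and a pseudocount of 5 put 0 higher in p53-M133T cells, against 1. Of the other 99 recomputed counts, most were 0 in both the reported and the recomputed result, so they say little about robustness. The rest stayed within 1.5 times of the reported ones, the 3 with summed copies among them. A further 138 single values kept their direction and, where an adjusted p was given, their call. Over all genes, the p53-M133T test called 816 higher and 340 lower by edgeR, 155 and 6 by DESeq2 and 386 and 405 with length and GC correction. The p53-R273H test called 21 and 10 by edgeR, 4 and 1 by DESeq2 and 1 and 3 with that correction, and the vector test 0 and 0 by edgeR, 0 and 2 by DESeq2 and 2 and 7 with that correction. Without the vector pair the test across lines called 1511 that rose and 1403 that fell. Leaving a pair out of the tests of single lines leaves no residual degree of freedom, so this was not run. Counts of 0 to 48 for every member but AKR1B1 and CBR3, and 1 library per group, limit what can be seen.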
